A study of Mus musculus with 16 samples.

Results

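The genes of the nuclear lamina and of the LINC complex were followed through 8 lists of chromatin immunoprecipitation (ChIP-seq) peaks from mouse heart muscle cells. The 10 genes were 3 lamins (Lmna, Lmnb1 and Lmnb2), 4 LINC complex genes (Sun1, Sun2, Syne1 and Syne2) and 3 genes of inner nuclear membrane proteins (Emd, Lbr and Tmpo). Their members in the lists were the peaks whose deposited gene symbol, that of the nearest transcript start, was 1 of these 10. This gave 103 of 53959 peaks for H3K27Ac, the acetylation of histone H3 at lysine 27 that marks active promoters and enhancers, and 2 of 2190 peaks for lamin A/C. Of the 10 genes, 9 had at least 1 peak, among 11472 genes with a peak in any list, and Lmnb2 had none.

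Adult cardiomyocytes were prepared with digestive enzymes from mice aged 3 months that had desmin (Des+/+) or lacked it (Des-/-), either without exercise (basal) or after swimming (swim). In the study's methods both genotype names stand for mice of the same background that also carry a green fluorescent protein transgene under the cardiac alpha myosin heavy chain promoter. Chromatin of several mice was combined, and each genotype, condition and antibody had 1 library with 1 input (chromatin sequenced without precipitation). No spread between replicates could therefore be measured and no difference between groups was tested. The intervals given below cover counting error only. Where 4 values follow each other, they are those of the basal pair, Des+/+ then Des-/-, and then of the swim pair, Des+/+ then Des-/-.

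The nuclear lamina is a meshwork of intermediate filament proteins under the inner nuclear membrane, built from A-type lamins (the products of Lmna) and B-type lamins (the products of Lmnb1 and Lmnb2). Emerin (Emd), the lamin B receptor (Lbr) and the lamina-associated polypeptides of Tmpo anchor chromatin and lamins to that membrane. SUN proteins (Sun1, Sun2) span the inner membrane and hold the KASH-domain nesprins (Syne1, Syne2) of the outer membrane, which bind the cytoskeleton, so that together they form the LINC bridge between the nucleus and the filaments of the cell. Desmin is the intermediate filament of muscle, and mutations in LMNA, EMD and SYNE genes are known in muscle disease.

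RefSeq lists 15 start windows for 9 of the genes, each reaching from 250 bases before to 50 bases after a start (GRCm38.p6). H3K27Ac peaks overlapped 10, 11, 8 and 7 of the 15 windows in the 4 libraries. Over all 32851 windows the shares were 27.7%, 29.3%, 20.1% and 20.1%. The sequences of 5 starts are shown because they span the range of what was measured: an internal start of Lmna and the start of Sun2, which carried the highest peaks, the start of Emd, which had a peak in every list, the start of Sun1, which had a peak only in the basal lists, and the start of Lmnb2, which had none. Each line gives the 250 bases before the start, 5′ to 3′ on the strand of the gene (GRCm38), and the capitals mark CG dinucleotides.
Lmna, chr3:88493313-88493562, minus strand: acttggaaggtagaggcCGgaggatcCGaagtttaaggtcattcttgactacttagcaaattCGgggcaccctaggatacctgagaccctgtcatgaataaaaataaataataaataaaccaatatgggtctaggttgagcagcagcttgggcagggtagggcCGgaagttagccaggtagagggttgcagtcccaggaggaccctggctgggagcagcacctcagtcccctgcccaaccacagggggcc
Lmnb2, chr10:80918246-80918495, minus strand: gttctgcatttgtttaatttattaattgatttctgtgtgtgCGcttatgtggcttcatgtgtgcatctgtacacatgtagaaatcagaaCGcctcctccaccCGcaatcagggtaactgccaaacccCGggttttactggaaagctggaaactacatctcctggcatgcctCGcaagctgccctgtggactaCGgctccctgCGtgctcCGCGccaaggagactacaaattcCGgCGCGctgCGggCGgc
Sun1, chr5:139200387-139200636, plus strand: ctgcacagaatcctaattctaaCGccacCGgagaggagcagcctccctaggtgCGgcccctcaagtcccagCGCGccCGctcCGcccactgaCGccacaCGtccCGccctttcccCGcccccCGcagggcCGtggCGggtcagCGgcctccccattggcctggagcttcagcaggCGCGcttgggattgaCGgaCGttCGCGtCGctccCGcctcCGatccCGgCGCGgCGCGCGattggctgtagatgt
Sun2, chr15:79742537-79742786, minus strand: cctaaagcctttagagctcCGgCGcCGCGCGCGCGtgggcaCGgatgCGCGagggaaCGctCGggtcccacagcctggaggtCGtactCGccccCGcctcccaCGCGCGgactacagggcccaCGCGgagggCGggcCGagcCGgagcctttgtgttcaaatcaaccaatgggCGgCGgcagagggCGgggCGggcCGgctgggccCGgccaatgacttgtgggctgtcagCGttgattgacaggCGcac
Emd, chrX:74254437-74254686, plus strand: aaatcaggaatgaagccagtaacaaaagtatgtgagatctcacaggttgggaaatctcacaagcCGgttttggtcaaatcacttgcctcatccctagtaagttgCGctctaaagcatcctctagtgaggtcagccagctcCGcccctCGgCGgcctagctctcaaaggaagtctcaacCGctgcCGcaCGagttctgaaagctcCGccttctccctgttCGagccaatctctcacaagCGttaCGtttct

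CG dinucleotides did not sort the starts shown above by their peaks. The 250 bases before the internal Lmna start held 4 CG dinucleotides and those before the start of Emd held 12, while the start of Lmnb2 held 14, that of Sun1 30 and that of Sun2 31. In the full window of 300 bases the internal Lmna start had 7 CG dinucleotides and the other RefSeq start of Lmna had 1. Over all windows, the median was 25 in the 5463 with a peak in all 4 H3K27Ac lists and 4 in the 22578 with a peak in none. Of the windows with a peak in all 4 lists, 5.05% and 0.366% had as few as the 2 Lmna starts. The Lmnb2 window held 24 CG dinucleotides, and 75.5% of all windows with at least that many had a peak in some list. The start of Syne2 had 35 and a peak in 1 list.

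Promoter motifs were searched on both strands by their letters alone. GGGCGG, the core of the GC box, was in 9 of the 15 windows (35.7% of all windows) and CCAAT, a box bound by NF-Y, in 7 (37.4%). TATAAA was in 2 of 15 (13.6%), CCGGAA, an ETS-type core, in 2 (14.9%), AGATAA, the core of sites of the GATA family, in 1 (11.2%) and CACGTG, the palindromic E-box, in 0 (7.15%). These counts are of windows with the letters at least once, whether or not 2 motifs overlap. The internal Lmna start held the NF-Y box and the ETS-type core, the start of Sun2 held the GC box and the NF-Y box, and the start of Lmnb2, without a peak, held the GC box and the ETS-type core.

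The deposited height of a peak was taken as the number of reads that overlap at its summit, with the same number for the input. Both were taken as not scaled to depth, which the sources used here do not state. The lists of acetylation peaks numbered 15757, 16638, 11157 and 10407 peaks, with a lowest height of 15 in each and median heights of 23, 23, 20 and 23. Median input height was 3 in the first 3 lists and 5 in Des-/- swim. Peaks carried the symbols of 7, 7, 7 and 5 of 8 cardiomyocyte markers, of 5, 5, 4 and 3 of 6 endothelial markers, of 1, 3, 0 and 0 of 6 fibroblast markers and of no leukocyte marker. Nppa had no peak in any list and Actn2 and Myl2 had none in Des-/- swim. The part of other cells in the values below was not tested.

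The 10 genes had 27 (Des+/+) and 32 (Des-/-) H3K27Ac peaks without exercise and 23 (Des+/+) and 21 (Des-/-) after swimming, 0.171% to 0.206% of each list. Lmna, Tmpo and Syne1 had the most and Lmnb2 had none. Most of these peaks were of ordinary height, with medians of 21, 19.5, 21 and 22, and in Des-/- basal 22 of 32 lay at or below the list's median. Within 3 kb of a transcript start lay 55.6%, 56.2%, 69.6% and 57.1% of them, against 71.5%, 71.2%, 74.4% and 77.3% of all peaks. The median input height under them was 2, 3, 3 and 4, and in Des-/- swim it reached 13. The genes' highest peaks lay at a median percentile of 69.5, 67.1, 75.5 and 56.5 of their lists, against 65.4, 65.3, 61.6 and 62.8 for all genes with a peak. With the peak that covers the Sun2 start in place of that gene's highest peak by symbol, a choice made after seeing the data, the medians were 79.5, 75.2, 75.5 and 62.7.

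**Figure D1:**
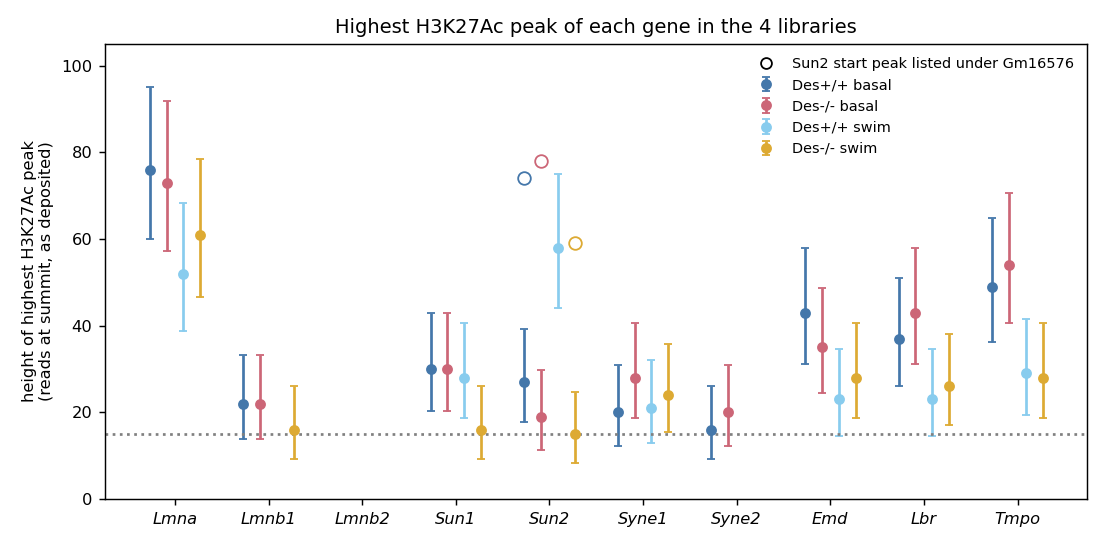
Height of the highest H3K27Ac peak of each gene (y axis, as deposited and taken as reads at the summit) in the 4 libraries (colours), with exact Poisson 95% intervals. The dotted line is the lowest height in the lists, 15, open circles are the Sun2 start peak where it was listed under Gm16576, and Lmna lies at 52 to 76, the Sun2 start peak at 58 to 78, and Lmnb2 has no point.

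Overlapping peaks of the 4 H3K27Ac lists were merged into loci, so that each stretch of chromatin could be followed whatever symbol its peak carried. The peaks of the 10 genes fell into 31 loci, of which 13 had a peak in all 4 lists, against 37.7% of all 18277 loci. A further 6 had a peak in both basal lists and in neither swim list, against 13.2% of all loci, and 5 had a peak in Des-/- basal alone, against 14%. The 13 loci in all lists were 4 of Lmna, 2 each of Syne1, Lbr and Tmpo and 1 each of Sun1, Sun2 and Emd. The genes without such a locus were Lmnb1, Lmnb2 and Syne2.

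**Figure D2:**
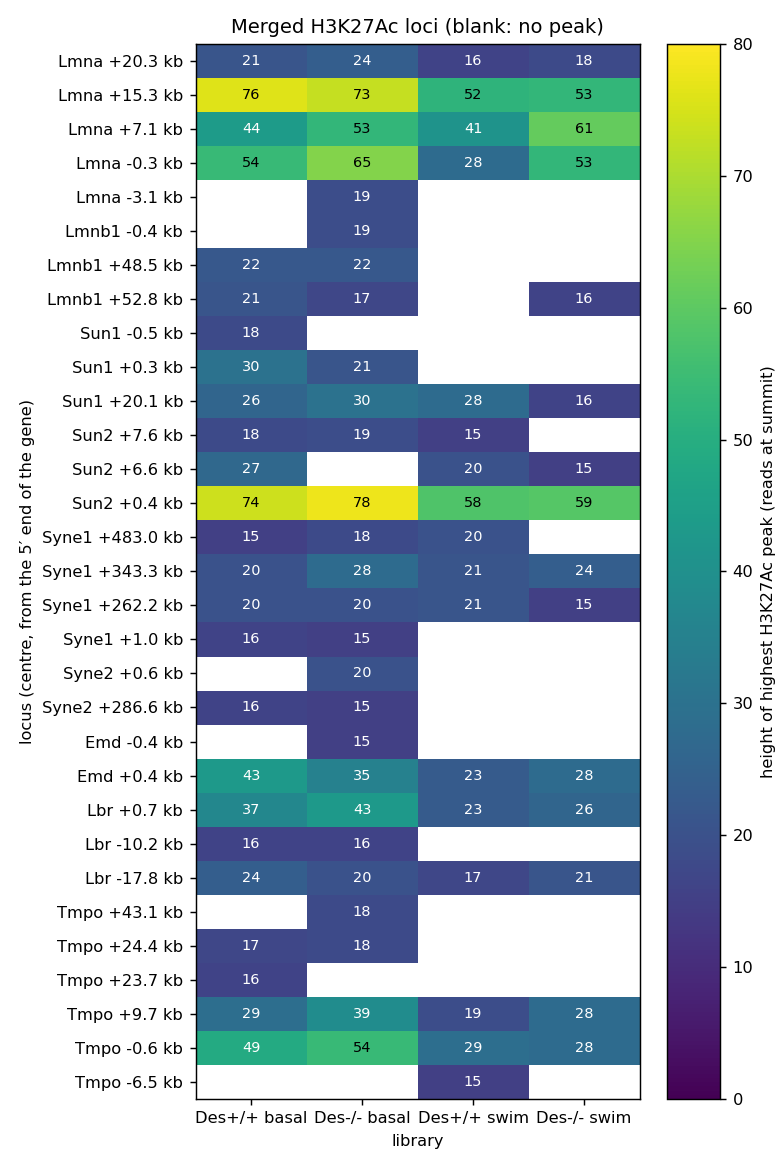
The 31 merged H3K27Ac loci (rows, named by gene and by the distance of their centre from the 5′ end of the gene in kb) in the 4 libraries (columns), with the height of the highest peak as colour and number, and blank cells where there was no peak. The tallest cells are those of Lmna and of the Sun2 start. All 6 loci listed in both basal lists and in neither swim list are at heights of 15 to 30, before scaling.

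Lmna, which encodes lamins A and C, had the longest sequence under H3K27Ac peaks of the genes in each of the 4 lists. The gene (chr3:88480147-88509956, minus strand, GRCm38) had 4 loci found in every list. The tallest in all lists but Des-/- swim was a domain around an internal start 15.3 kb into the gene (chr3:88492139-88497127). Its highest peak measured 76 (Des+/+) and 73 (Des-/-) without exercise and 52 (Des+/+) and 53 (Des-/-) after swimming, so the genotypes were close in each condition and both swim libraries were lower than both basal libraries before scaling.

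This domain was 1 unbroken peak without exercise, 4923 bp long in Des+/+ and 4902 bp in Des-/-. In the swim lists it was listed as 3 peaks in Des+/+ and 4 in Des-/-, with 52 or 53 in the part nearest the start and 16 to 26 in the others. The number of Lmna peaks thus went from 4 in Des+/+ basal to 7 in Des+/+ swim while the sequence they covered was 10631 and 10297 bp, and it was 7 in both Des-/- lists with 11715 and 9441 bp. Peak number and covered length therefore did not move together at Lmna. One break in Des+/+ swim was narrow, with 1 peak ending at 88495046 and the next starting at 88495055. Over all H3K27Ac peaks the median width was 892 and 912 bp in the basal lists and 812 and 828 bp in the swim lists. The share of all basal peaks that were broken up in this way was not counted.

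The other 3 Lmna loci lay 7.1 kb into the gene at a cluster of starts (chr3:88501609-88504134), at the 5′ end (chr3:88509221-88511226) and in an intron 20.3 kb in (chr3:88488455-88490843). The locus at 7.1 kb had heights of 44 and 53 in the basal pair and 41 and 61 in the swim pair, the highest in Des-/- swim, where the input of 11 was also the highest. The 5′ locus had 54, 65, 28 and 53 before scaling, lowest in Des+/+ swim. After the scaling described below, its ratio for swim against basal in Des+/+ was 0.728 (0.444 to 1.17). The intronic locus was low throughout, at 21, 24, 16 and 18. A small peak 3.1 kb upstream, with a height of 19, was listed in Des-/- basal alone.

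**Figure D3:**
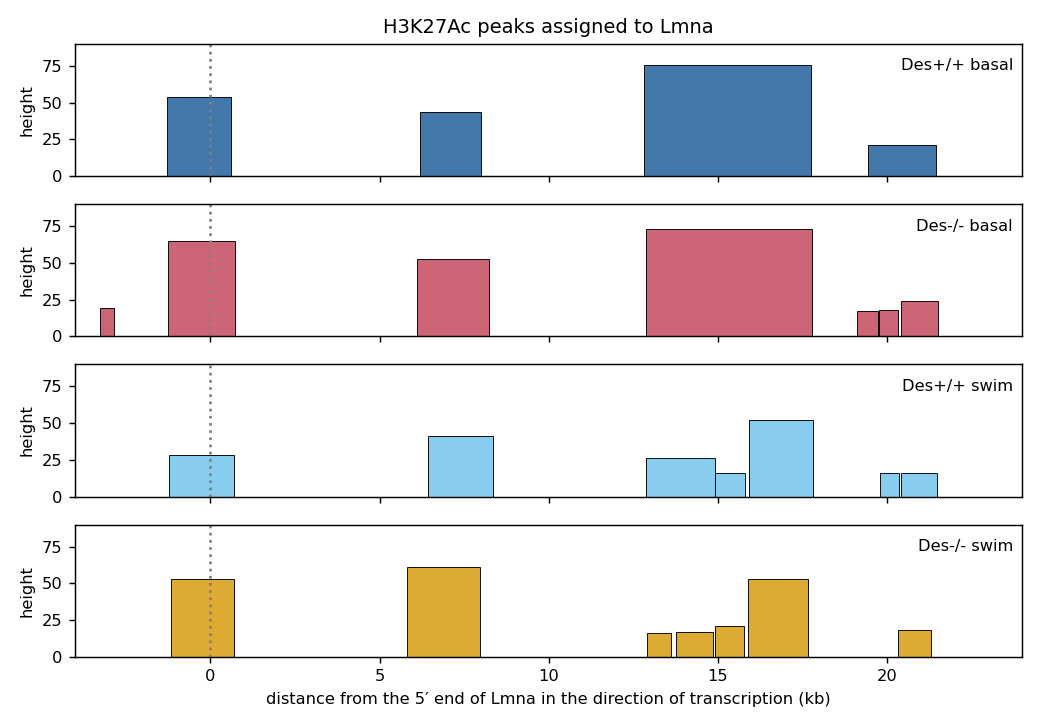
H3K27Ac peaks assigned to Lmna in the 4 libraries, as bars that span each peak, with distance from the 5′ end of the gene in kb on the x axis and deposited height on the y axis. The domain near 15 kb is 1 bar in both basal lists and 3 or 4 bars in the swim lists, and the bar at 0 kb is lowest in Des+/+ swim, at 28.

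The B-type lamin genes had few H3K27Ac peaks or none. At Lmnb1 (chr18:56707813-56753424) a peak at the start was listed in Des-/- basal alone, with a height of 19 over an input of 5. Its other loci lay beyond the 3′ end, 48.5 and 52.8 kb from the 5′ end, with heights of 22 and 22 in the basal lists for the first, and of 21 (Des+/+ basal), 17 (Des-/- basal) and 16 (Des-/- swim) for the second. No H3K27Ac peak with this symbol was in Des+/+ swim. Lmnb2 (chr10:80901203-80918245) had no peak of its own in any list, and none of any symbol overlapped the gene or the 3 kb upstream of it. The nearest peaks belonged to Timm13, 354 bp and 310 bp beyond its 3′ end in the basal lists, and to Gadd45b, 10476 and 10459 bp away in the swim lists.

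Sun2, a SUN protein gene (chr15:79724070-79742536, minus strand), had values that depended on how its peaks were assigned. By symbol, its highest peak was 27, 19, 58 and 15 in the 4 libraries, and the Des+/+ swim library stood far above the others. By position, a peak covered the Sun2 start in all 4 lists, with heights of 74 (95% interval 58.1 to 92.9), 78 (61.7 to 97.3), 58 (44.0 to 75.0) and 59 (44.9 to 76.1) and inputs of 5, 4, 8 and 13. In 3 of the lists that peak was given to Gm16576, a gene that starts in the same stretch, and only in Des+/+ swim to Sun2. At its start, Sun2 was therefore among the most acetylated of the genes in each library, at percentiles of 95.6 to 97.0. The low values by symbol were those of 2 weaker loci near an internal start, 6.6 and 7.6 kb into the gene, with heights of 15 to 27.

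**Figure D4:**
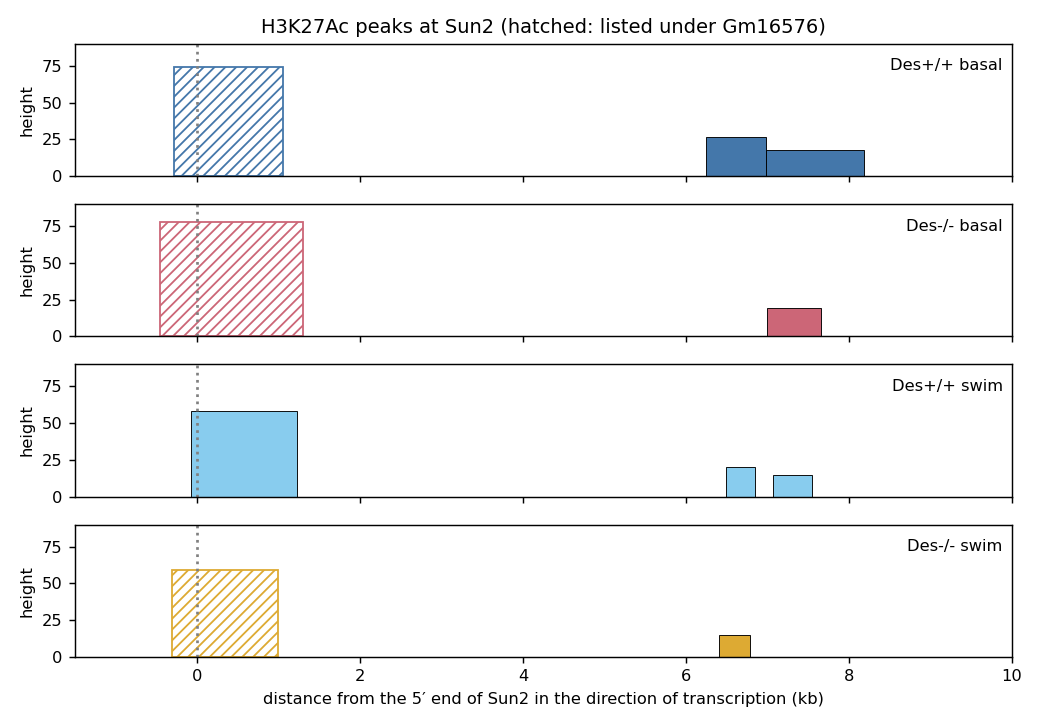
H3K27Ac peaks at Sun2 in the 4 libraries, as bars that span each peak, with distance from the 5′ end of the gene in kb on the x axis and deposited height on the y axis. Hatched bars are peaks listed under Gm16576; the start peak is present in all 4 libraries at 58 to 78 and is filled only in Des+/+ swim.

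Sun1, the other SUN protein gene (chr5:139200637-139249840), had a listed peak over its start only in the basal lists, with 30 in Des+/+ and 21 in Des-/-. A locus in an intron 20.1 kb from the start was in every list, with heights of 26 and 30 in the basal pair and 28 and 16 in the swim pair. Des-/- swim was the low library there, and its input height of 5 was the largest of the 4.

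Syne1, which encodes nesprin-1, spans 530566 bp (chr10:5020917-5551482, minus strand), and its peaks lay far apart. Acetylation at the locus centred 1 kb into the gene, which held 2 transcript starts, was near the lowest listed height. It had 16 (Des+/+) and 15 (Des-/-) without exercise and no peak in either swim list. An internal start 483.0 kb into the gene had 15 and 18 in the basal pair, 20 in Des+/+ after swimming and no peak in Des-/- swim. The loci with a peak in every list were inside the gene, at 343.3 kb with 20, 28, 21 and 24 and at 262.2 kb with 20, 20, 21 and 15. Syne2, which encodes nesprin-2 (chr12:75818134-76110926), had a start peak in Des-/- basal alone, with a height of 20 over an input of 4, and a weak locus 286.6 kb in with 16 and 15 in the basal lists. It had no peak after swimming in either genotype.

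Emd, the X-linked gene of emerin, had 1 locus at its start in every list (chrX:74254630-74255635), with heights of 43 and 35 in the basal pair and 23 and 28 in the swim pair. Lbr had 37, 43, 23 and 26 at its start and a second locus 17.8 kb upstream with 24, 20, 17 and 21. Tmpo had 49, 54, 29 and 28 at its 5′ end and 29, 39, 19 and 28 at a cluster of starts 9.7 kb in. For all of these start loci both swim libraries were lower than both basal libraries before scaling. At the inner Tmpo starts the Des-/- swim height of 28 stood over an input of 13, against inputs of 3 to 6 in the other libraries.

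Heights were next compared between libraries after division by the median ratio over all genes with a peak in both lists, which was 1.07 for Des-/- against Des+/+ in basal, 1.12 in swim, 0.714 for swim against basal in Des+/+ and 0.737 in Des-/-. A ratio of 1 thus means a gene that moved as the median gene did. Comparisons with a library in common share its counting error. A limit of 1.5-fold was used to name genes, and it is not a test. No listed height was under 15. A gene with a low height in the list compared against could therefore not pass this limit downward.

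For desmin loss without exercise, all 9 genes with a peak had one in both genotypes. In all genes, 11.1% had a peak in Des-/- alone and 6.19% in Des+/+ alone. Of the genes' 32 Des-/- peaks 5 had no partner in Des+/+, against 19.7% of all peaks, and of 27 Des+/+ peaks 3 had none in Des-/-, against 14.5%. No gene was 1.5-fold higher in Des-/-, against 3.03% of 8773 genes, and 1 was lower, against 3.02%. That gene was Sun2 by symbol, at 0.656 (0.345 to 1.22), and its start peak gave 0.979 (0.703 to 1.36). Lmna was at 0.895 (0.640 to 1.25) and Syne1, the highest ratio, at 1.31 (0.709 to 2.44). The median over the 9 genes was 0.932.

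After swimming, 1 of the genes, Lmnb1, had a peak in Des-/- and none in Des+/+, against 13.8% of all genes, and none had the reverse, against 15.2%. Of 21 Des-/- peaks 1 lacked a partner in Des+/+, against 22.2% of all peaks, and of 23 Des+/+ peaks 4 lacked one in Des-/-, against 27%. No gene was 1.5-fold higher in Des-/-, against 3.34% of 5904 genes, and 2 were lower, against 4.17%. Sun1 was lower at 0.510 (0.258 to 0.976), with only its intronic locus in both lists. Sun2 was lower by symbol at 0.231 (0.122 to 0.413), and at its start the ratio was 0.916 (0.626 to 1.34). Lmna was at 1.05 (0.712 to 1.55), where the highest Lmna peak of Des-/- swim was the locus at 7.1 kb and that of Des+/+ swim the domain at 15.3 kb.

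For swimming in Des+/+ mice, 2 genes with a basal peak, Lmnb1 and Syne2, had none after swimming, against 26.5% of all genes, and none gained its first peak, against 3.3%. Of 27 basal peaks 10 had no partner after swimming, against 39% of all peaks, and 1 of 23 swim peaks had no basal partner, against 8.39%. At the scale of the swim library 7 of those 10 peaks would have been under the lowest listed height of 15, and so would 6 of the 17 that did have a partner. The other 3 without one were the Sun1 start peak, at 30, and both Lmnb1 peaks. By symbol 1 gene was 1.5-fold higher, against 4.22% of 6844 genes, and none was lower, against 3.08%. It was Sun2, at 3.01 (1.87 to 4.94), and its start peak gave 1.10 (0.767 to 1.57). Emd was the lowest at 0.749 (0.431 to 1.27) and Lmna was at 0.958 (0.660 to 1.38). With the heights of all peaks of a gene summed, the log2 ratio of Lmna, which had 4 peaks before and 7 after swimming, went from -0.06 to 0.54, that of Tmpo from -0.27 to 0.46, and that of Sun1, whose start peak had no partner after swimming, from 0.39 to -0.87.

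For swimming in Des-/- mice, 1 gene, Syne2, had a basal peak and none after swimming, against 31.3% of all genes, and none gained its first peak, against 3.06%. Of 32 basal peaks 17 had no partner after swimming, against 44.8% of all peaks, and 1 of 21 swim peaks had no basal partner, against 6.28%. At the scale of the swim library 15 of the 17 would have been under a height of 15, and so would 4 of the 15 that did have a partner. The other 2 without one were the Sun1 start peak, at 21, and the Lmnb1 peak of 22. No gene passed 1.5-fold, where 4.39% of 6739 genes were higher and 2.97% lower. Genes of low basal height could not have been called lower. Sun2 by symbol was at the lowest listed height, 15 against 19 in basal, and its ratio was still 1.07 (0.507 to 2.23). Ratios ran from 0.704 (0.429 to 1.13) for Tmpo to 1.16 (0.645 to 2.08) for Syne1, and Lmna was at 1.13 (0.794 to 1.62). With summed heights the log2 ratio of Lmnb1 went from -0.02 to -1.33 and that of Sun1 from -0.47 to -1.51.

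**Figure D5:**
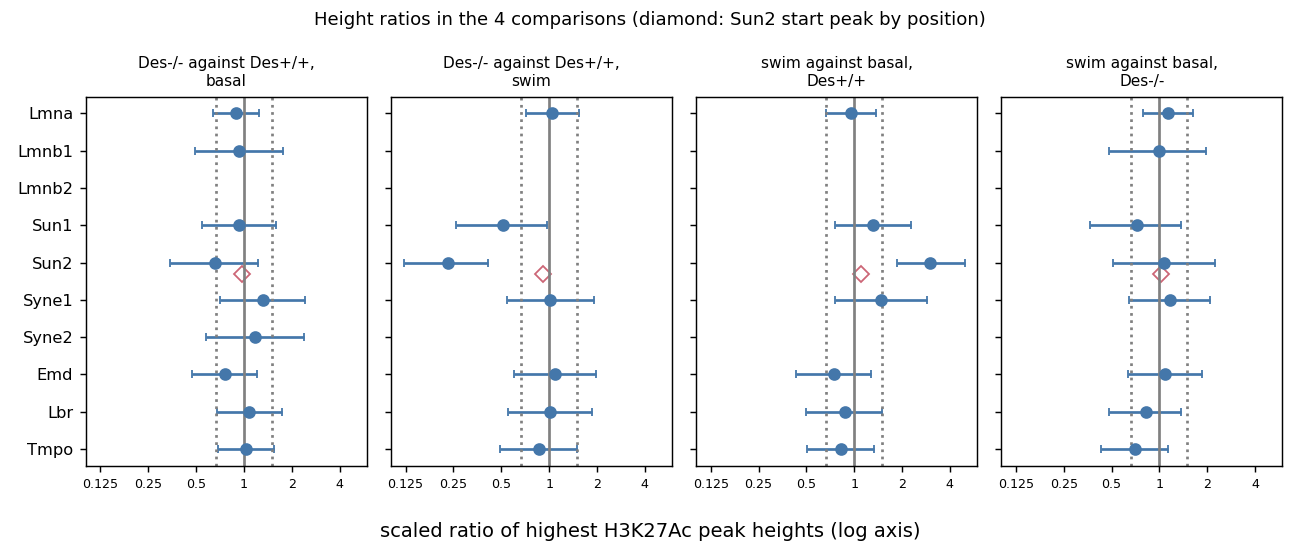
Scaled ratio of the highest H3K27Ac peak by symbol (x axis, log scale) for each gene (y axis) in the 4 comparisons, with exact 95% intervals for counting error, a solid line at 1 and dotted lines at 1.5-fold. Sun2 stands apart in 2 panels by symbol, while the diamonds, its start peak by position, lie between 0.916 and 1.10 in all 4.

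At the level of loci, where the same stretch is compared, the 13 loci found in all lists were set against all 6899 such loci. For Des-/- against Des+/+ in basal none of the 13 was 1.5-fold higher or lower, against 2.42% and 2.88%. In swim 1 was higher, against 3.58%, and 2 were lower, against 4.2%. The higher one was the 5′ locus of Lmna at 1.70 (1.06 to 2.80), with 53 over an input of 6 in Des-/- and 28 over an input of 3 in Des+/+. The lower ones were the intronic Sun1 locus at 0.514 (0.260 to 0.984) and the Syne1 locus at 262.2 kb at 0.643 (0.308 to 1.31). For swim against basal in Des+/+ 1 was higher, against 4.73%, and none lower, against 2.96%, and this was the Sun1 locus at 1.51 (0.855 to 2.68). For swim against basal in Des-/- 1 was higher, against 4.28%, and none lower, against 2.68%, and this was the Lmna locus at 7.1 kb at 1.57 (1.07 to 2.31), whose input went from 4 to 11. For loci too, a low height in the list compared against left no room for a 1.5-fold fall above the lowest listed height. The median ratio of the 13 loci was between 0.995 and 1.06 in the 4 comparisons.

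Lamin A/C, the product of Lmna, was itself precipitated, and its lists had 188, 831, 635 and 536 peaks. Only 2 of these peaks carried the symbol of 1 of the 10 genes. The first was in an intron of Syne1 in Des+/+ basal (chr10:5161673-5161831), with a height of 8 (95% interval 3.45 to 15.8) over an input of 2, which was the lowest height in the list. The second was assigned to Lbr in Des-/- basal (chr1:181743222-181743436), with a height of 10 (4.80 to 18.4) over an input of 2, and it lay 71899 bp outside the gene. Both swim lists had none. At this depth no lamin A/C peak was detectable over Lmna, Lmnb1, Lmnb2, Emd, Sun1, Sun2, Syne2, Lbr or Tmpo or their 3 kb upstream in any library.

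Other genes of the nuclear envelope were taken from a list of 23 genes, among them SUN, KASH and LEM-domain proteins, other nuclear membrane proteins, torsins and their cofactors, and enzymes that process prelamin A. H3K27Ac peaks carried the symbols of 18, 18, 10 and 13 of them in the 4 libraries. In Des+/+ mice 8 of 18 had a basal peak and none after swimming, against 26.5% of all genes, and in Des-/- mice 6 of 19 did, against 31.3%. The basal heights of these genes were 16 to 28 in Des+/+ and 15 to 33 in Des-/-. How many would have been under the lowest listed height of 15 at the scale of the swim library was not counted. Peaks were in all 4 lists for 8 genes, in some for 11 and in none for 4, which were Syne4, Sun3, Sun5 and Zmpste24, the protease that matures prelamin A. The 11 were Syne3, Lemd2, Tmem43, Tmem201, Mlip, Tor1a, Tor1b, Tor1aip2, Rce1, Fnta and Plpp7. The highest peaks in Des+/+ basal were those of Tor1aip1, the torsin activator LAP1, with 107, 106, 54 and 68, of Fntb, a farnesyltransferase subunit, with 83, 82, 38 and 54, and of Plec, which links intermediate filaments to other structures, with 44, 46, 30 and 31. Of 17 of these genes with a peak in both basal lists, 2 were 1.5-fold higher in Des-/- after scaling, against 3.03% of all genes, and none was lower. They were Ankle2 (38 against 23) and Banf1 (51 against 27). Of 10 with a peak in both Des+/+ lists, Banf1 was 1.5-fold higher after swimming (34 against 27), against 4.22% of all genes, and Fntb was lower (38 against 83), against 3.08%. None passed the limit in the other comparisons. These ratios were of highest peaks by symbol, without intervals, and whether the same stretch was compared was not checked. Banf1 had 1 peak in Des+/+ basal and 2 in Des+/+ swim, and Fntb had 2 and 1. No gene of this list had a lamin A/C peak.

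The genes most like Lmna in the standing of their highest H3K27Ac peak were Mafk, Upf2 and Klhl9, out of 5744 genes with a peak in all 4 lists. Lmna lay at percentiles of 97.0, 95.6, 95.6 and 96.1. The absolute differences from it summed over the 4 libraries to 0.800, 1.04 and 1.30 percentile points.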

How the data were processed

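ChIP-seq was performed by the authors for H3K27Ac and lamin A/C in 4 groups (2 genotypes, with or without swimming), giving 8 precipitated libraries and their inputs, 16 samples in all. Per the submitters' processing notes, reads were aligned to GRCm38 (mm10) with Bowtie2 2.4.4, handled with SAMtools 1.13, and peaks were annotated with ChIPseeker 1.36.0. Peaks were called in each library against its input with the authors' own scripts. Treatment of duplicate reads, read extension and depth scaling are not given in the sources used here.

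The deposited peak and input heights are whole-number coverage signal, and the deposited distance to the nearest transcript start is a score in bp. Columns of fold change, p-value and false discovery rate, made by the authors, were not used. Deposited transcripts matched GENCODE M21, of the same build, in 94.6% to 99.2% of peaks of a list.

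Members, lists and limits were chosen with earlier results of these data known. Members were the peaks with 1 of the 10 symbols, and all 10 genes were named. Of the list of 23 envelope genes, those with a peak in some lists, those with none and the 3 highest in Des+/+ basal were named, as were the 3 genes nearest to Lmna in percentile. Peaks were partners, or were merged into a locus, at an overlap of 1 bp. Ratios were scaled by their median and given with exact 95% intervals of a ratio of Poisson counts. The height is a maximum over a peak, so these intervals leave out that choice. They also take the heights as numbers of reads that were not scaled to depth. The scaling and overlap steps were tested on simulated data. Start windows and sequences came from RefSeq (GRCm38.p6), which matched 9 of the 10 genes. Python 3.11.15 with pandas 2.3.3, numpy 2.4.6 and scipy 1.17.1 was used.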

Additional observations from a re-analysis of the deposited data

How the results depend on the processing

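With 1 library a group, heights near the lowest listed height, 15 for H3K27Ac and 8 for lamin A/C, set what could be seen, and library read totals were not used. No paired analysis was possible because each group had 1 library and no test was made. With heights of 30 or more, the peaks numbered 7, 8, 3 and 3 and the genes with a peak 5, 5, 2 and 1. With the top 10000 peaks the basal lists kept 16 and 16 peaks. With peaks within 3 kb of a start, 15 and 18 peaks were left in the basal pair and 12 peaks of 5 genes in Des-/- swim. The lamin A/C peaks fell to 0 in both basal lists at a height of 16 or more, and to 0 in Des-/- basal when the gene and its 3 kb upstream replaced the symbol. An overlap of 50% for partners kept each count within 1.5 times.

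For genes past the limit, Des-/- against Des+/+ in basal gave 1 higher with summed heights, and 0 lower with a limit of 2, without scaling or by position. In swim it gave 1 higher with summed heights, and 1 lower with a limit of 2 or by position. Swim against basal in Des+/+ gave 0 higher by position, and 3 lower without scaling and 2 with summed heights. In Des-/- it gave 3 lower without scaling, 2 with input subtracted and 2 with summed heights. For these counts, all settings but the limit of 2 were chosen after seeing the data. By position the log2 ratio of Sun2 was -0.15 for desmin loss in swim and 0.14 for swimming in Des+/+, against -2.11 and 1.59 by symbol. Construction shows the cause there: the start peak was counted whatever its symbol. Summed heights put the log2 ratio of Lmna at 0.35 for desmin loss in basal, against -0.16, and at 0.54 for swimming in Des+/+, against -0.06. For the other counts the cause was not tested.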
